A study of Mus musculus with 6 samples.

Results

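The expression of 10 proteoglycan genes was followed in the mouse aorta. They were 7 small leucine-rich proteoglycan genes (Bgn, Dcn, Aspn, Lum, Fmod, Prelp and Ogn), the large hyaluronan-binding proteoglycan genes Vcan and Acan, and Hspg2, which encodes the basement membrane proteoglycan perlecan. They were chosen by gene symbol, and each matched 1 of the 36557 gene rows. RNA from aortic arch and thoracic aorta had been sequenced in 6 libraries from mice fed a high-fat diet for 4 weeks. Of these, 3 were from Apoe-/- mice (controls) and 3 from Apoe-/- MiR26b-/- mice (knockouts), so all lacked Apoe and the groups differed in the microRNA gene Mir26b. Mir26b itself was not analysed here, so the genotypes rest on the labels. Age and sex, and whether a library came from 1 animal or several, are not given in the sources used here; the p-values therefore measure the spread between these libraries, which may be technical.

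Small leucine-rich proteoglycans are secreted proteins with a curved, repeat-built core and 1 or a few sugar chains; they bind collagen fibrils and set how thick and how regularly spaced the fibrils become. Large proteoglycans carry many chains: versican and aggrecan form aggregates with hyaluronan that hold water, and perlecan spans basement membranes with heparan sulfate chains. In the artery wall, smooth muscle cells and adventitial fibroblasts make most of them, and their chondroitin and dermatan sulfate chains can retain apolipoprotein B-containing lipoproteins, an early step in atherosclerosis.

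Mir26b gives the microRNA miR-26b-5p, and the related Mir26a genes give miR-26a-5p. These RefSeq sequences (GRCm38.p6) are shown because the knockout removes the first and not the second, and both carry the same seed, bases 2 to 8, in capitals.
mmu-miR-26b-5p: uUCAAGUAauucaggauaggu
mmu-miR-26a-5p: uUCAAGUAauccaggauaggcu
Matches to the seed were sought on the sense strand, either as TACTTGA (opposite bases 2 to 8), as the overlapping form ACTTGAA (opposite bases 2 to 7, with an A opposite base 1), or as TACTTGAA, which holds both, in the longest annotated 3′ UTR of each gene (GENCODE mouse release M21, GRCm38). They were found in 2 of the 10 genes, Prelp and Aspn, against 20.9% of 16142 tested genes with a 3′ UTR. The matches, in capitals, stand at chr1:133912567-133912573 (minus strand) and chr13:49566680-49566687 (plus strand).
Prelp, 3′ UTR: cctctgacagcACTTGAAggctggtggcc
Aspn, 3′ UTR: tacatttggaaTACTTGAActgtcctagta
Neither of these genes passed the test between the groups, and the 3 genes that did (Lum, Dcn and Hspg2) held no match. A match is a description of letters and does not show that a microRNA binds there.

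Levels below are in TPM, the authors' transcript abundance, which allows for transcript length, or in CPM, counts scaled to library depth by TMM, on which the tests were run. The libraries were of similar depth, from 51634139 to 54817547 estimated counts. Knockout replicate 3 stood apart, at 0.97 on the first principal component (61.9% of variance), with controls between -45.35 and -25.42 and the other knockouts at 47.05 and 55.72. Smooth muscle markers were abundant in every library (10 of 10 tested, summed level 34468 to 39788 CPM in the control libraries and 23133 to 27734 CPM in the knockout libraries). In whole-tissue RNA, fewer cells of a type and less RNA per cell cannot be told apart.

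Among the 10 genes, Lum and Dcn were higher and Hspg2 was lower in the knockout aortas, while 7 did not pass the test. Lum, which encodes lumican, had the largest difference of the 10, at 3.42-fold, and Dcn, which encodes decorin, rose 1.46-fold. The fall of Hspg2, 1.30-fold, passed the test on counts and not on TPM values. The rise of Dcn passed on log2(TPM + 0.1) and not on log2(TPM + 1) (limma adjusted p = 0.0486 and 0.0536). All 10 passed the filter on low counts. By edgeR's quasi-likelihood test at an adjusted p under 0.05, 10.3% of the 17392 tested genes passed in either direction, 6.5% higher and 3.84% lower. Among the 6172 genes whose average log2 CPM was 5 or more, 13.5% passed. A count of 3 of 10 is not shown to differ from these shares. CPM groups did not overlap in 4 of the 10 (Lum, Dcn, Bgn and Hspg2), against 36.1% of tested genes, and TPM groups in 3 of the 10, against 32.7%, and both counts are close to these shares.

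Markers of perivascular fat also varied between libraries: summed brown fat markers were at 1041, 561 and 293 CPM in controls 1 to 3 and 181, 237 and 730.2 CPM in knockouts 1 to 3, and none of the 7 passed the test. With the mean log2 CPM of 14 brown and white fat markers as a covariate the log2 differences were 1.48 for Lum, 0.44 for Dcn and -0.35 for Hspg2, and none passed (edgeR adjusted p = 0.0991, 0.0859 and 0.0932). Calls fell over the whole table as well, from 1798 to 194 of all tested genes. The covariate also leaves fewer residual degrees of freedom.

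**Figure D1:**
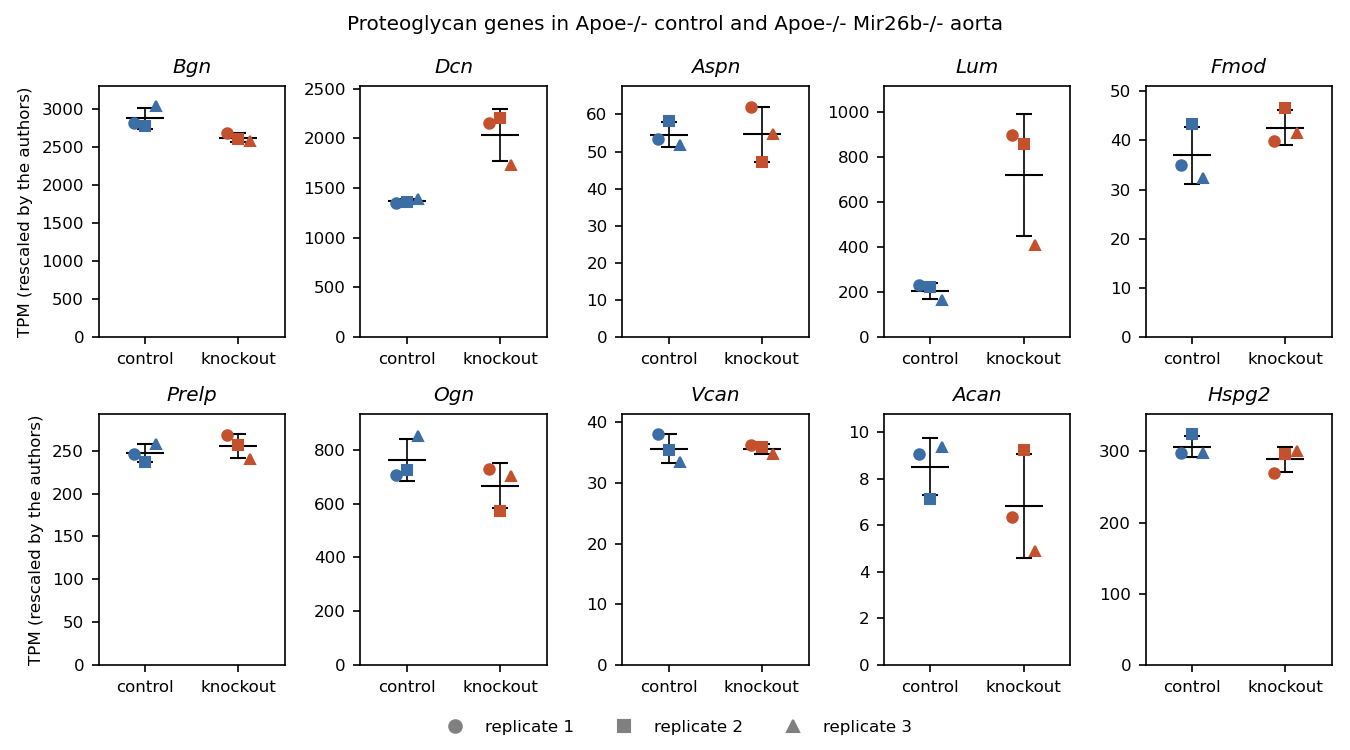
TPM of each gene (y axis, linear from 0, a separate scale for each gene) in the 3 control (blue) and 3 knockout (red) libraries; symbols mark the replicate number, horizontal lines the group mean and error bars the SD. The Lum panel separates the groups most, from 166 to 232 TPM in controls against 408 to 895 TPM in knockouts, and the Dcn panel also shows no overlap.

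Per length, biglycan was the most abundant of the 10 transcripts in controls, and their levels spanned more than 2 orders of magnitude on the TPM scale. Bgn stood at 2878 ± 137 TPM (SD, n = 3), followed by Dcn at 1366 ± 25.4 TPM, Ogn at 762 ± 78.1 TPM, Hspg2 at 307 ± 15.0 TPM, Prelp at 247 ± 10.5 TPM and Lum at 206 ± 35.2 TPM. Aspn, at 54.6 ± 3.36 TPM, Fmod, at 36.9 ± 5.74 TPM, and Vcan, at 35.7 ± 2.33 TPM, were lower, and Acan, at 8.51 ± 1.21 TPM, was the lowest. Of neighbours in this order, only Fmod and Vcan overlapped between control libraries. In knockouts Lum moved from rank 6 to rank 3 (719 ± 270.2 TPM), where it overlapped Ogn (668 ± 82.7 TPM), and Hspg2 (289 ± 17.1 TPM) overlapped Prelp (256 ± 14.4 TPM).

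Lumican is a class II small leucine-rich proteoglycan that binds fibrillar collagen and is also known to take part in innate immune signalling. Its gene (ENSMUSG00000036446, chromosome 10, 97565128 to 97572703, plus strand, GRCm38) has 1 annotated transcript of 3 exons. Lum stood at 345, 330.4 and 248 CPM in control replicates 1 to 3 and at 1299, 1255 and 602 CPM in knockout replicates 1 to 3. The groups did not overlap, and knockout replicate 3 lay about midway on a log scale between the controls and the other knockouts. The log2 difference was 1.77 (SE 0.31), with an edgeR adjusted p of 0.0304. Leaving out knockout replicate 3 gave 2.05 (adjusted p = 0.000456), and leaving out any other single library gave 1.59 to 1.86 with adjusted p between 0.0856 and 0.124. The macrophage marker list was likewise lowest in replicate 3 of each group: 12 of 12 members were higher, with summed levels of 911, 908 and 700.3 CPM in the controls and 4288, 4803 and 1759.7 CPM in knockout replicates 1, 2 and 3. The fibroblast marker list, which holds none of the 10 genes, had 3 of 13 members higher and none lower. Its summed levels were 5126 to 5429 CPM in the control libraries and 5881 to 6001 CPM in the knockout libraries. Knockout replicate 3, at 5918 CPM, lay between the other 2 in this sum. The largest part of the sum was Gsn, which did not pass (2437 ± 73.8 and 2354 ± 89.7 CPM, edgeR adjusted p = 0.676). In the list's median log2 level over the control mean, knockouts 1 to 3 were at 0.255, 0.201 and 0.296, replicate 3 the highest. No marker of either list was at 0 in any library. The part of these cells in the rise of Lum was not tested.

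Dcn (ENSMUSG00000019929, chromosome 10, 97479609 to 97518143, plus strand) encodes decorin, a class I member that coats collagen fibrils and binds transforming growth factor beta. Its level was 1368, 1388 and 1425 CPM in the controls and 2142, 2213 and 1744 CPM in the knockouts. The controls lay close together, and the lowest knockout, replicate 3, was still above all of them. The log2 difference was 0.54 (SE 0.10), with an edgeR adjusted p of 0.0328. It was 0.64 without knockout replicate 3 (adjusted p = 0.000781) and 0.48 to 0.56 without any other single library (0.0898 to 0.134). On log2(TPM + 1) the difference was of like size, 0.56, with a limma adjusted p of 0.0536.

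Bgn (ENSMUSG00000031375, chromosome X, 73483602 to 73495933, plus strand) encodes biglycan, the close relative of decorin that carries 2 glycosaminoglycan chains and binds lipoproteins. Its level was 4072, 4059 and 4412 CPM in the control libraries and 3804, 3729.5 and 3710.1 CPM in the knockout libraries. The groups did not overlap. The difference of -0.16 on the log2 scale (SE 0.08) did not pass in edgeR (adjusted p = 0.218) and passed in DESeq2 (-0.16, adjusted p = 0.0345). Within each library the ratio of Bgn to Dcn, which does not depend on how libraries are scaled, was 2.09, 2.05 and 2.17 in controls and 1.24, 1.18 and 1.49 in knockouts. The ratio was lower in every knockout; the log2 difference was -0.70, and the exact two-sided permutation p was 0.1, the smallest that 3 against 3 libraries allow (0.167 adjusted over the 5 ratios computed).

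Aspn (chromosome 13, 49544443 to 49567565) encodes asporin, the remaining class I member here, which lacks a glycosaminoglycan chain. It stood at 74.6, 81.9 and 72.6 CPM in the control libraries and 84.3, 65.0 and 75.5 CPM in the knockout libraries. The knockout values bracketed the controls, and the log2 difference was -0.03 (SE 0.10, edgeR adjusted p = 0.887). This is the gene with the full 8-base seed match printed above.

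The other class II genes did not pass the test. Fmod encodes fibromodulin, which competes with lumican for a site on collagen and acts in fibril maturation. It stood at 68.2, 85.1 and 63.3 CPM in the control libraries and at 75.5, 89.1 and 79.7 CPM in the knockout libraries, overlapping, with a log2 difference of 0.17 (SE 0.12, edgeR adjusted p = 0.382). The TPM ratio of Fmod to Lum, lower in every knockout, was 0.151, 0.197 and 0.195 in controls and 0.0445, 0.0543 and 0.102 in knockouts (log2 difference -1.52, exact permutation p = 0.1). Prelp encodes an arginine- and proline-rich protein that anchors basement membranes to the underlying collagen. Its range was 545 to 589 CPM in the control libraries and 542 to 597 CPM in the knockout libraries, with a log2 difference of 0.02 (SE 0.07, adjusted p = 0.865).

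Ogn encodes osteoglycin (mimecan), a class III member found in the media and adventitia of arteries. It stood at 1110.4, 1148 and 1341 CPM in the control libraries and 1114, 887 and 1092 CPM in the knockout libraries. Knockout replicate 2 was the lowest of the 6 libraries, and the groups overlapped through knockout replicate 1 and control replicate 1. The log2 difference was -0.22 (SE 0.12, edgeR adjusted p = 0.268). The ratio of Ogn to Aspn, neighbours on chromosome 13, differed by -0.19 on the log2 scale with an exact permutation p of 0.2.

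**Figure D2:**
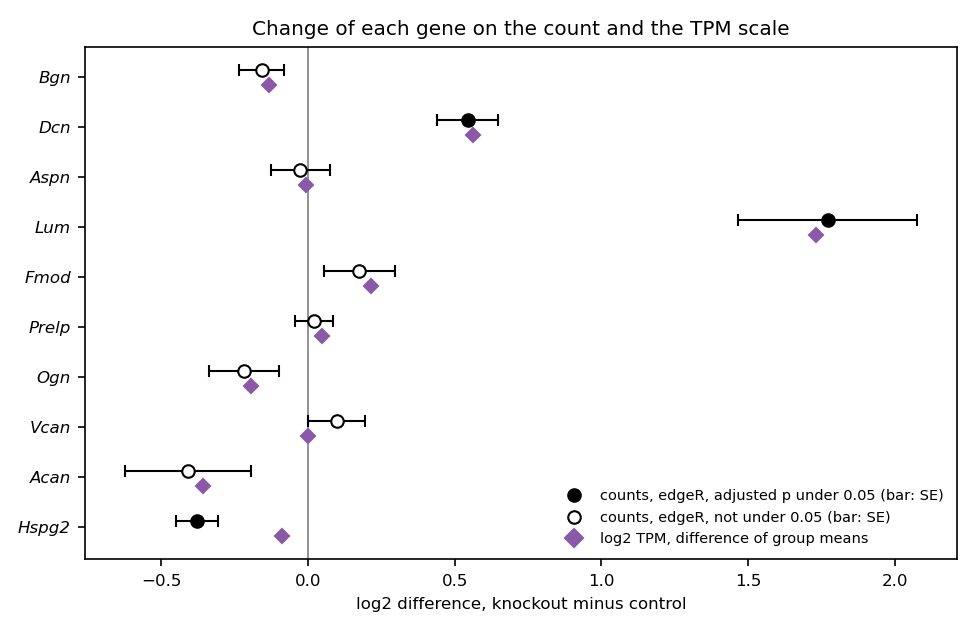
Log2 difference, knockout minus control (x axis), of each gene from counts (circles with SE bars, edgeR; filled where the adjusted p is under 0.05) and from log2 TPM (diamonds, difference of group means). Lum and Dcn lie to the right of 0 on both scales, and Hspg2 is at -0.38 from counts and -0.09 from TPM.

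The shares are given as a description, with no test of their own. As a share of the 10 genes' summed TPM, Lum went from 3.51% ± 0.70 to 10.5% ± 3.31 and Dcn from 23.2% ± 0.349 to 30.1% ± 1.71 (SD, n = 3 per group). Bgn went from 48.7% ± 0.719 to 39.2% ± 2.73. Because the shares sum to a whole, part of the lower share of Bgn follows from the larger sum, which was 5785, 5791 and 6131 TPM in controls and 7147, 6931 and 6092 TPM in knockouts. In knockout replicate 3, with a sum inside the range of the controls, the share of Lum was 6.70% and that of Dcn 28.4%. The TPM ratio of Lum to Dcn was 0.172, 0.163 and 0.119 in controls and 0.415, 0.388 and 0.236 in knockouts (log2 difference 1.17, exact permutation p = 0.1, 0.167 adjusted over the 5 ratios). Each gene of this pair was higher, Lum by more, in all 3 knockouts.

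**Figure D3:**
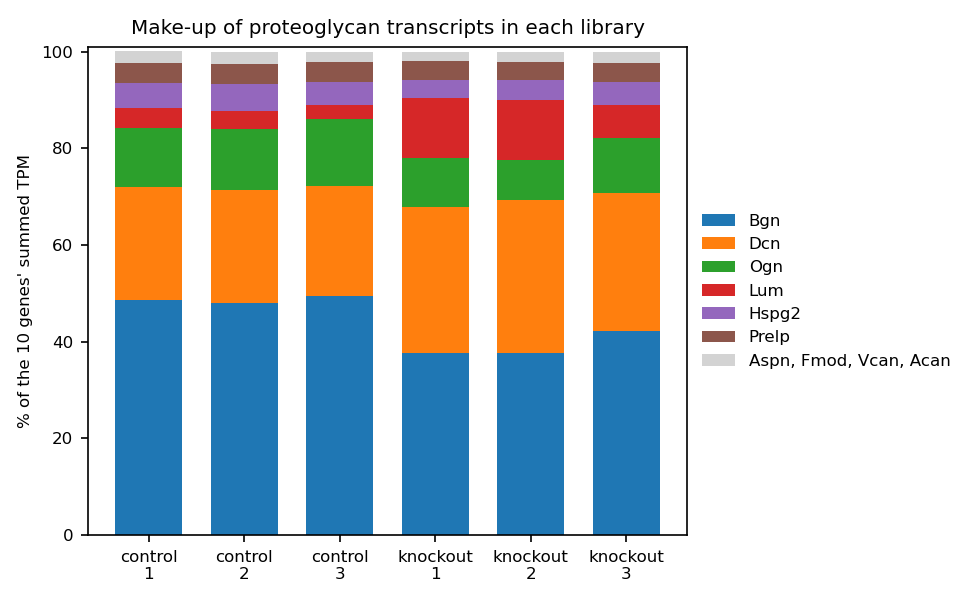
Share of the 10 genes' summed TPM (y axis, percent, linear from 0) taken by each gene in each library (bars). Bgn takes 48.1% to 49.5% in controls and 37.6% to 42.3% in knockouts, while the Dcn and Lum segments are wider in all 3 knockouts.

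Hspg2 (ENSMUSG00000028763, chromosome 4, 137468769 to 137570630, plus strand) encodes perlecan, the heparan sulfate proteoglycan of vascular basement membranes that is known to restrain smooth muscle growth. From counts it stood at 1369.9, 1424 and 1428 CPM in the control libraries and 1026, 1068 and 1155 CPM in the knockout libraries. Every knockout lay below every control, and the log2 difference was -0.38 (SE 0.07) with an edgeR adjusted p of 0.0325. It was -0.43 without knockout replicate 3 (adjusted p = 0.00318) and -0.39 to -0.34 without any other single library (0.094 to 0.134). Smooth muscle markers, a list with 6 of 10 members lower, were also below every control in every knockout in their summed level given above. The endothelial marker list had 4 of 10 members higher and none lower, with a median log2 difference of 0.244. The part of either cell type in the fall of Hspg2 was not tested.

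In the TPM table Hspg2 was at 298, 324 and 298 in controls and at 269, 297 and 300.3 in knockouts. These groups overlapped, and on log2(TPM + 1) the difference was -0.09 with a limma adjusted p of 0.450. By construction, TPM divides a count by transcript length, so the ratio of the 2 within a library gives an implied mean length. Scaled by 1134 genes of at least 2000 nucleotides with 1 annotated transcript, the implied mean length for Hspg2 was 7310.4, 6935 and 7596 nucleotides in controls and 6219, 5806 and 6163 nucleotides in knockouts. The implied length was shorter in every knockout, at 83.2% of the control mean. GENCODE M21 lists 3 transcripts for the gene, 2 coding ones of 14187 and 14176 nucleotides with 97 exons each and a non-coding one of 820 nucleotides with 2 exons; the authors' transcript set is not given in the sources used here. A limma fit of the log2 ratio over 16312 genes gave Hspg2 a difference of -0.27 (SE 0.05, adjusted p = 0.321, unadjusted p = 0.00322); 0% of genes passed at an adjusted p under 0.05, with 1609 at an unadjusted p under 0.05. The log2 difference of Hspg2 was below 0 on both scales, and what set the gap between them was not tested.

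**Figure D4:**
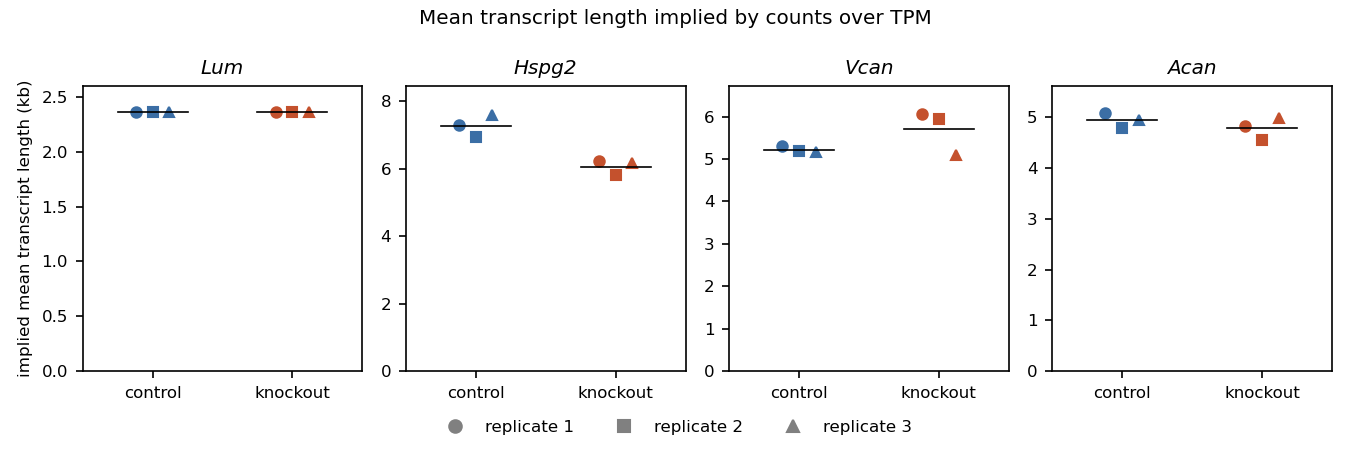
Mean transcript length in kilobases (y axis, linear from 0, a separate scale for each gene) implied by the ratio of counts to TPM in each library; symbols mark the replicate number and lines the group means. Lum, with 1 annotated transcript, is level, Hspg2 is lower in all 3 knockouts, and Vcan is higher in knockout replicates 1 and 2 only.

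Vcan (chromosome 13, 89655312 to 89742509, minus strand) encodes versican, the main hyaluronan-binding proteoglycan of the arterial intima, whose splice forms differ in the domains that carry chondroitin sulfate. It stood at 127, 117 and 109 CPM in the control libraries and at 135, 133 and 110.3 CPM in the knockout libraries. The log2 difference was 0.10 (SE 0.10, edgeR adjusted p = 0.542) from counts and -0.001 on log2(TPM + 1) (limma adjusted p = 0.995), so the direction was not the same on both scales. Its implied mean length was 5318, 5188 and 5158 nucleotides in controls and 6064, 5953 and 5099 nucleotides in knockouts. Knockout replicates 1 and 2 were above all controls and replicate 3 below them (log2 difference 0.12, SE 0.08, limma adjusted p = 0.620). The annotated coding transcripts that could be mixed range up to 12427 nucleotides (Vcan-203). The TPM ratio of Vcan to Hspg2 differed by 0.09 on the log2 scale (exact permutation p = 0.5); on CPM, without allowance for length, it differed by 0.47 (p = 0.1).

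Acan (chromosome 7, 79053483 to 79115099, plus strand) encodes aggrecan, the large proteoglycan of cartilage that is also present in the arterial wall. It stood at 29.0, 21.7 and 29.2 CPM in the control libraries and 18.8, 26.1 and 15.2 CPM in the knockout libraries. The groups overlapped through knockout replicate 2 and control replicate 2, and the log2 difference was -0.41 (SE 0.21, edgeR adjusted p = 0.252). Of the cartilage marker list 9 of 12 genes were tested and 1 was higher, the transcription factor gene Sox9 (2.78 ± 0.458 to 6.92 ± 2.52 CPM, adjusted p = 0.0448). The list summed to 46.3 to 60.1 CPM in the control libraries and 59.1 to 108 CPM in the knockout libraries. Most of it was from Comp, the gene of a matrix protein of cartilage and tendon, which did not pass (edgeR adjusted p = 0.0808). The list's median log2 difference was 0. Sox9, Comp, Col2a1 and Matn3 lay above 0, Col9a3 at 0, and Col9a1, Col11a2, Snorc and Hapln1 below 0. The cartilage genes Matn1 and Cnmd had means under 0.1 CPM in both groups, with Matn1 at 0 in control replicate 1. Col2a1 stood at 0.274 ± 0.206 and 1.47 ± 1.28 CPM and did not pass (edgeR adjusted p = 0.123).

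Of the 10 genes 6 lie near other small leucine-rich genes. Dcn and Lum, near each other, were both higher, and none of the tested neighbours outside the 10 passed the test. On chromosome 10, Dcn and Lum are 47.0 kb apart and are followed by Kera and Epyc on the same strand. Kera, the gene of the corneal proteoglycan keratocan, held at most 0.038 CPM in any library and was not tested. Epyc, the gene of the cartilage proteoglycan epiphycan, stood at 2.23, 3.76 and 0.894 CPM in the control libraries and 4.72, 6.70 and 3.98 CPM in the knockout libraries. Its groups did not overlap, but its log2 difference of 1.16 (SE 0.48) did not pass (edgeR adjusted p = 0.163).

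On chromosome 13, Ecm2, Aspn, Omd and Ogn stand in a row with gaps of 11.7 to 15.2 kb. Ecm2, the gene of a matrix protein with leucine-rich repeats, went from 326 ± 29.3 to 220.2 ± 43.7 CPM (log2 difference -0.57, SE 0.15) with an edgeR adjusted p of 0.0591. Omd, the gene of osteomodulin, went from 23.9 ± 3.24 to 18.3 ± 1.51 CPM (-0.39, SE 0.11, adjusted p = 0.0736). Both had non-overlapping groups on both scales and neither passed. On chromosome 1, Optc, Prelp and Fmod lie 59.5 Mb from Mir26b. Optc, known for the vitreous protein opticin, is on the strand of Prelp with its nearest end 2.3 kb away; it stood at 63.4 ± 4.40 CPM in the control libraries and 43.5 ± 12.7 CPM in the knockout libraries (-0.54, SE 0.19, adjusted p = 0.113). Whether reads that run on from Prelp have a part in the level of Optc was not tested.

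Other genes of proteoglycan biology were counted in 10 lists with 171 genes, the 10 genes above left out. Of 162 tested, 23 (14.2%) were higher and 18 (11.1%) lower, against 6.5% and 3.84% of all tested genes. The median log2 difference was 0.06 against -0.003 for all tested genes. Among genes whose average log2 CPM was 5 or more, 13.5% passed in either direction. The lists were chosen with earlier results of these data known, so the contrast is a description only. All 23 higher and 17 of the 18 lower genes had non-overlapping TPM groups in the same direction. The exception was the laminin gene Lamc1. TPM groups did not overlap in 32.7% of all tested genes. The TPM come from the same libraries as the calls that picked these genes, so this is not separate support. Without knockout replicate 3 the counts of higher and lower genes were 51 and 34. Without any other single library they were 0 and at most 2. With the fat covariate they were 0 and 4.

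In the list of fibril and basement membrane partners 8 of 30 fell and 2 rose, with a median log2 difference of -0.13. The 8 were Col4a1, Col4a2, Lamc1, Lama4, Col5a1, Col6a1, Col6a2 and Col6a3. The other laminin and nidogen genes of the list did not pass: their log2 differences were -0.41 for Lamb2, -0.27 for Lama5, -0.15 for Lama2, -0.10 for Nid2, 0.15 for Nid1 and 0.31 for Lamb1. The smooth muscle markers, 6 of 10 lower, fell beside these 8 genes, while 4 of 10 endothelial markers were higher and none lower. The part of either cell type was not tested. The type IV collagen genes Col4a1 and Col4a2 fell from 1132 ± 35.5 to 831 ± 40.3 CPM and 1.51-fold from 844 ± 20.6 CPM to between 536 and 579.9 CPM (edgeR adjusted p = 0.0246 and 0.0112), and their TPM fell as well, from 265 to 200.4 and from 204 to 137. The laminin genes Lamc1 and Lama4 fell 1.20-fold and 1.39-fold (adjusted p = 0.0325 and 0.0397); in TPM, Lamc1 was at 73.7 and 71.7, with overlapping groups. The type VI collagen gene Col6a3, whose product binds decorin and biglycan, fell 1.69-fold in counts (adjusted p = 0.009) and its implied length was 76.4% of that in controls. Among fibril partners Col14a1, of a fibril-associated collagen, and Fbln1, of the matrix protein fibulin-1, rose 1.48-fold and 1.47-fold (adjusted p = 0.0322 and 0.0246); Col14a1 is also on the fibroblast marker list. The fibrillar collagen genes Col1a1, Col1a2 and Col3a1, to whose products lumican and decorin bind, had log2 differences of 0.36, 0.10 and 0.25 with adjusted p of 0.187, 0.572 and 0.231.

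On the list of 14 other matrix genes, most of them of proteoglycans, 2 rose and 2 fell. The basement membrane proteoglycans Col18a1 and Col15a1, both collagens that carry sugar chains, fell 1.59-fold and 1.66-fold (edgeR adjusted p = 0.0245 and 0.00911) and had lower TPM in every knockout. Srgn, of the proteoglycan of blood cell granules, rose 2.03-fold from 42.2 ± 2.10 to 85.9 ± 24.2 CPM (adjusted p = 0.0355), and Smoc2 rose 1.30-fold. Of 15 tested cell-surface genes 2 rose and 3 fell. Sdc3, of a syndecan, rose 3.37-fold to 246, 305 and 113 CPM in knockout replicates 1 to 3 (adjusted p = 0.0343). Cspg4, a proteoglycan of mural cells, fell 1.46-fold, Cspg5 2.27-fold and Ptprz1, a receptor phosphatase with chondroitin sulfate chains, 2.10-fold (adjusted p = 0.0241, 0.0165 and 0.0347). None of 10 tested other small leucine-rich genes passed; the lowest adjusted p was that of Ecm2.

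The sugar chains are built in the Golgi on a common linker. Of 26 tested genes for the linker and for chondroitin and dermatan sulfate synthesis, 4 fell and none rose: the polymerase gene Chsy3 1.52-fold, the sulfotransferase genes Chst3 1.42-fold and Ust 1.26-fold, and the nucleotide sugar transporter gene Slc35d1 1.28-fold (edgeR adjusted p = 0.0304, 0.0322, 0.0424 and 0.0328). The list's median log2 difference was 0.05, so the list as a whole did not share the direction of these 4. Of 20 tested heparan sulfate genes 1 rose, Hpse, of the enzyme heparanase that cuts heparan sulfate, from 9.18 ± 0.323 to 19.2 ± 5.72 CPM (adjusted p = 0.0373). Of 7 keratan sulfate genes B4galt1 rose 1.31-fold and B3gnt2 fell 1.29-fold.

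Of 14 lysosomal genes of glycosaminoglycan breakdown 6 rose and none fell, with a median log2 difference of 0.32. Hexa rose 1.78-fold, Glb1, of beta-galactosidase, 1.45-fold and Naglu 1.39-fold (edgeR adjusted p = 0.0351, 0.0408 and 0.0443). Naglu stood at 58.2, 61.6 and 46.1 CPM in knockouts 1 to 3, and in these 3 genes replicate 3 was the lowest knockout, as it was for the summed macrophage markers given above; their part was not tested. Of 13 tested proteases that cut proteoglycans 6 rose and none fell, with a median of 0.37. Adamts4, an aggrecanase that also cuts versican, rose from 4.36 ± 0.257 to 11.8 ± 4.34 CPM and Adamts5 from 86.6 ± 7.25 to 119 ± 8.06 CPM (adjusted p = 0.0347 and 0.0307). The stromelysin gene Mmp3 rose 2.77-fold and the collagenase gene Mmp13 6.87-fold (edgeR adjusted p = 0.0347 and 0.0325), Mmp13 from only 1.13 ± 0.0252 CPM in controls. In knockouts 1 to 3, Adamts4 stood at 14.3, 14.4 and 6.82 CPM, Mmp3 at 308, 357 and 155 CPM and Mmp13 at 10.4, 10.3 and 2.61 CPM. Replicate 3 was the lowest knockout for each, as for the summed macrophage markers, of which 12 of 12 were higher. It was also the lowest for Adamts5 and for the barely expressed Gzmb (0.21 ± 0.0522 CPM in controls, 0.597 ± 0.164 CPM in knockouts), which rose too. For Adamts15, another that rose, it was the highest, with knockouts 1 to 3 at 116, 109.5 and 121 CPM. The part of the macrophage markers in these rises was not tested. Adamts1, of another versican-cutting protease, was at 209 ± 8.38 CPM in the control libraries and between 185 and 275 CPM in the knockout libraries.

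Of 14 tested hyaluronan and link protein genes 3 rose and none fell. They were the hyaluronan synthase gene Has1, from 2.55 ± 0.444 to 6.43 ± 2.20 CPM, the clearance receptor gene Stab2, from 0.762 ± 0.216 to 4.12 ± 1.97 CPM, and Hmmr, of a hyaluronan-binding mitotic protein, from 2.24 ± 0.376 to 5.49 ± 1.11 CPM (edgeR adjusted p = 0.0397, 0.0304 and 0.0267). The synthase gene Has2, at 1.88 ± 0.392 and 3.10 ± 0.105 CPM, had an adjusted p of 0.0528. Hapln1, of the link protein that locks versican and aggrecan onto hyaluronan, was at 5.85 ± 0.686 and 5.32 ± 0.381 CPM (adjusted p = 0.506).

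**Figure D5:**
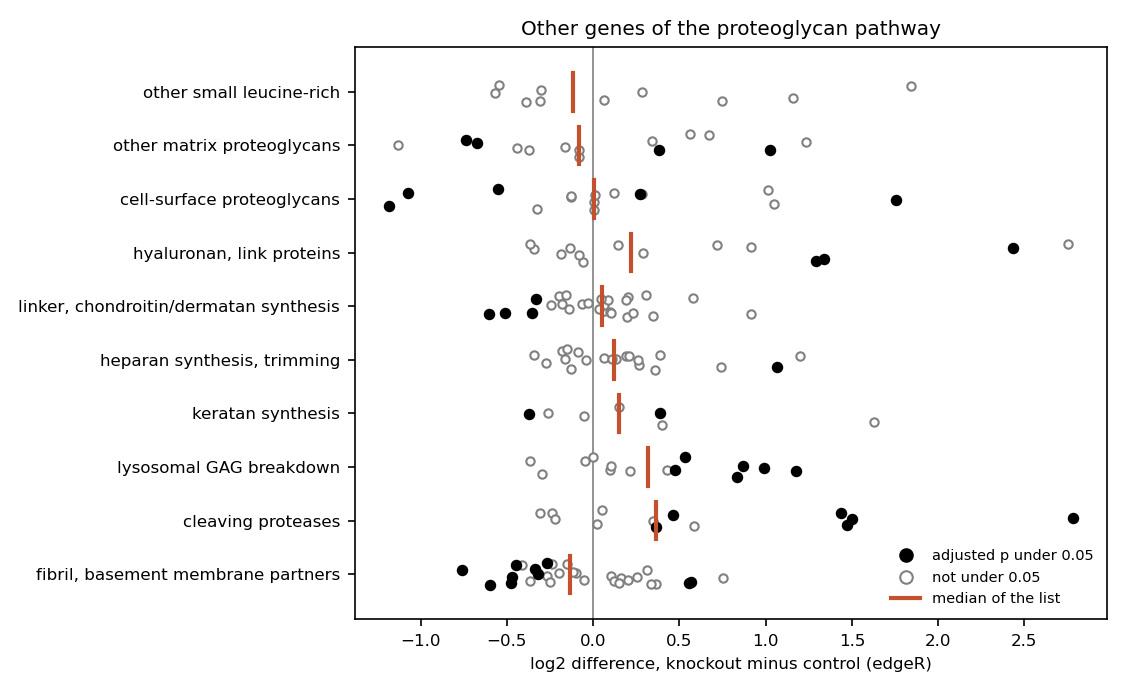
Log2 difference, knockout minus control (x axis, edgeR), of each tested gene in the 10 proteoglycan lists (rows; filled circles have an adjusted p under 0.05; red bars are the list medians; vertical jitter carries no value). In the rows of lysosomal breakdown and of cleaving proteases all 6 filled circles lie to the right of 0, and in the row of chondroitin and dermatan synthesis all 4 lie to the left.

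The genes whose log2 CPM followed Lum most closely over the 6 libraries were Rai14 (Pearson r = 0.9988) and Rab19 (0.9987), those for Dcn were Mea1 (0.9995) and Tyms (0.9984), and those for Hspg2 were Smg1 (0.9999) and Wdfy1 (0.9971). Of these genes Rai14, Rab19 and Wdfy1 passed the test between the groups, and Mea1, Tyms and Smg1 did not. With 6 libraries in 2 groups high values are not rare: 1230 of 13832 other genes exceeded 0.95 with Lum, 1080 with Dcn and 483 with Hspg2. That threshold is below the values named. The correlations describe likeness over these libraries only.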

How the data were processed

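The build GRCm38 and the tools kallisto 0.46.2, Trim Galore 0.6.5 and FastQC 0.11.8 come from the submitters' processing notes; the step from transcripts to genes is not given in the sources used here. The authors deposited estimated counts per gene, which are not whole numbers, and TPM values, used here as a signal because the deposited columns sum to between 955527 and 1034723. In the labels, the mean RNA integrity was 7.0. Strand is not stated, so overlapping genes cannot be separated.

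Counts were rounded, filtered with filterByExpr (minimum count 10), scaled by TMM and tested with edgeR 4.0.16 in R 4.3.3, with Benjamini-Hochberg adjustment over 17392 genes. Standard errors are the log2 difference divided by the root of F. Alternatives used other scalings and filters, DESeq2 1.42.0, limma 3.58.1 (voom, and log2(TPM + 1) or log2(TPM + 0.1)), a replicate block, a perivascular fat covariate and omission of each library. The genes and lists were chosen with earlier results of these data known, and the fit of the ratio of counts to TPM was added after seeing the data. All 10 genes were named; from each list, called genes, at most 4 of lowest p, and otherwise the 1 of lowest p; others named were chosen for their role after their values were seen. A gene that the rule names is not reported here. Replicates differed by more than sampling noise in every pair (mean chi-square per gene 12.21 to 110.7). On simulated counts made from these libraries (5 sets, about 17231 genes, 200 changed per set), recovery was 44.8% for changes of 1.5-fold, 83.6% at 2-fold and 99.6% at 4-fold. No simulated library was made to stand apart as knockout replicate 3 did, so these shares need not hold for the real libraries.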

Additional observations from a re-analysis of the deposited data

How the results depend on the processing

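Each gene was recomputed under 17 alternatives. Lum, Dcn, Bgn, Fmod, Ogn, Acan and Hspg2 kept their direction in all 17, between 1.48 and 2.05 for Lum, 0.44 and 0.64 for Dcn and -0.43 and -0.09 for Hspg2 (log2). Directions reversed for Prelp, to -0.034 with the fat covariate, -0.007 without control replicate 2 and -0.011 without knockout replicate 1 (-0.011 to 0.056 when 1 library was omitted); for Aspn, to 0.017 with library size alone, 0.025 without control replicate 2 and 0.066 without knockout replicate 2 (-0.119 to 0.066); and for Vcan, to -0.001 on both TPM scales. None of the 3 passed in any alternative. Of the 10 genes 2 were higher and 1 lower; this was 1 and 0 on log2(TPM + 1), 0 lower on log2(TPM + 0.1), 0 and 0 with the fat covariate, and 2 lower in DESeq2. Omitting 1 library gave 0 to 2 higher and 0 to 1 lower. With the fat covariate, adjusted p were 0.0991 for Lum, 0.0859 for Dcn and 0.0932 for Hspg2. The 23 higher and 18 lower pathway genes became 41 and 32 in DESeq2, 7 and 11 on log2(TPM + 1), 14 and 11 on log2(TPM + 0.1), 0 and 4 with the fat covariate, and 10 higher in limma-voom; omitting 1 library gave 0 to 51 and 0 to 34. Of all tested genes 1798 were called, 3443 by DESeq2, 1073 by limma-voom, 712 and 942 on the TPM scales, 194 with the fat covariate and 0 to 5079 when 1 library was omitted. With 0 called, 4056 genes had an unadjusted p under 0.05 without control replicate 1 and as many without control replicate 3. Fewer libraries also leave fewer residual degrees of freedom, and the cause of the other differences was not tested. With library size alone 1476 genes were higher and 447 lower, against 1131 and 667 under TMM. The 5 ratios kept their direction under every alternative run. Same-numbered libraries correlated at -0.092, 0.234 and 0.076 in their deviations from the group means, and different-numbered ones at -0.206 to 0.116. With 3 libraries per group these values cannot show whether the numbers pair the libraries. With the replicate block edgeR called 1995 genes, 2 of the 10 genes higher and 1 lower. The exact paired permutation p of each of the 5 ratios was 0.25, the smallest that 3 pairs allow. The calls of Lum, Dcn and Hspg2 held with the block (edgeR adjusted p = 0.016, 0.0454 and 0.0328).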
